A study of Sus scrofa with 18 samples.

Results

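Monocytes and macrophages of the heart are followed here through a set of marker genes in the right ventricle of pigs, before and after coronary artery ligation. Of 10 genes listed as markers of these cells, 6 had at least 1 probe set of their own on the array: CD14, CD163, FCER1G, TYROBP, AIF1 and C1QA. They were measured by 8 probe sets, since CD14 and CD163 had 2 each, out of 6765 genes named and 23935 probe sets tested. CD68, CSF1R, LYZ and C1QB were named by no probe set of the probe table used here and were not analysed here. A probe set is a group of array probes for 1 transcript, and its level is a log2 intensity.

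Macrophages live in the healthy heart muscle, where they clear dead cells and debris, and monocytes enter from the blood after injury. They sense their surroundings through pattern receptors such as CD14, through antibody receptors and through receptors that lack a signalling tail of their own and borrow one from adaptor proteins. They are also a main source of C1q, the protein that starts the classical complement pathway.

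Each of 9 pigs, a mixed breed with Hampshire, Yorkshire and Swedish Landrace ancestry, gave 2 samples of the right ventricular free wall. The 9 failure samples were taken once the right ventricle had failed after its coronary arteries were tied off, and the 9 baseline samples came from the same animals. No transgene or drug is named in the labels. Labels of pigs 5, 10 and 14 (label set 2) give a weight between 30 and 40 kg and define failure by a right atrial pressure above 20 mmHg. Labels of pigs 6, 8, 9, 11, 12 and 13 (label set 1) give 120 min of ischemia for failure. None of the samples analysed here came from pigs followed over the same time without ligation, so failure cannot be told apart from time and surgery. Age and sex were not used here.

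The tissue label fitted the marker levels. The mean level of 12 cardiomyocyte markers lay between 13.4 and 13.9 on the failure arrays and between 13.5 and 13.9 on the baseline arrays, against array medians of 5.59 to 5.66. In bulk tissue, fewer cells of a type and less RNA per cell cannot be told apart. Red blood cell markers moved with failure: 5 of 5 measured genes were lower, with a median log2 change of -0.83, and ALAS2, AHSP and HBM, 3 of them, passed the test. The mean level of these 5 genes lay between 5.64 and 6.91 on the failure arrays and between 6.60 and 7.88 on the baseline arrays. GAPDH gives a sign of RNA quality, as its 3' probe set minus its 5' probe set on the log2 scale. This quantity differed between failure and baseline by 0.237 ± 0.556 (SD, n = 9 pigs) and was higher in failure in 6 of 9 pigs (p = 0.246 by a two-sided exact permutation of signs).

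None of the 8 probe sets of the marker genes passed the test between failure and baseline. The paired limma fit, with Benjamini-Hochberg adjustment over 23935 probe sets at a threshold of 0.05, called 16 probe sets of the whole array (0.0668%) and 0 of the 8 markers, whose adjusted p ran from 0.727 to 0.989. At an unadjusted p under 0.05 there were 2 of 8 markers and 1470 of all probe sets. The median log2 change of the 8 probe sets was 0.03 (5 higher, 3 lower), beside 0.000344 over all tested probe sets. Changes of single animals were larger than these means: by the brighter probe sets, the markers other than CD14 were all higher in failure in some pigs and all lower in others.

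**Figure D1:**
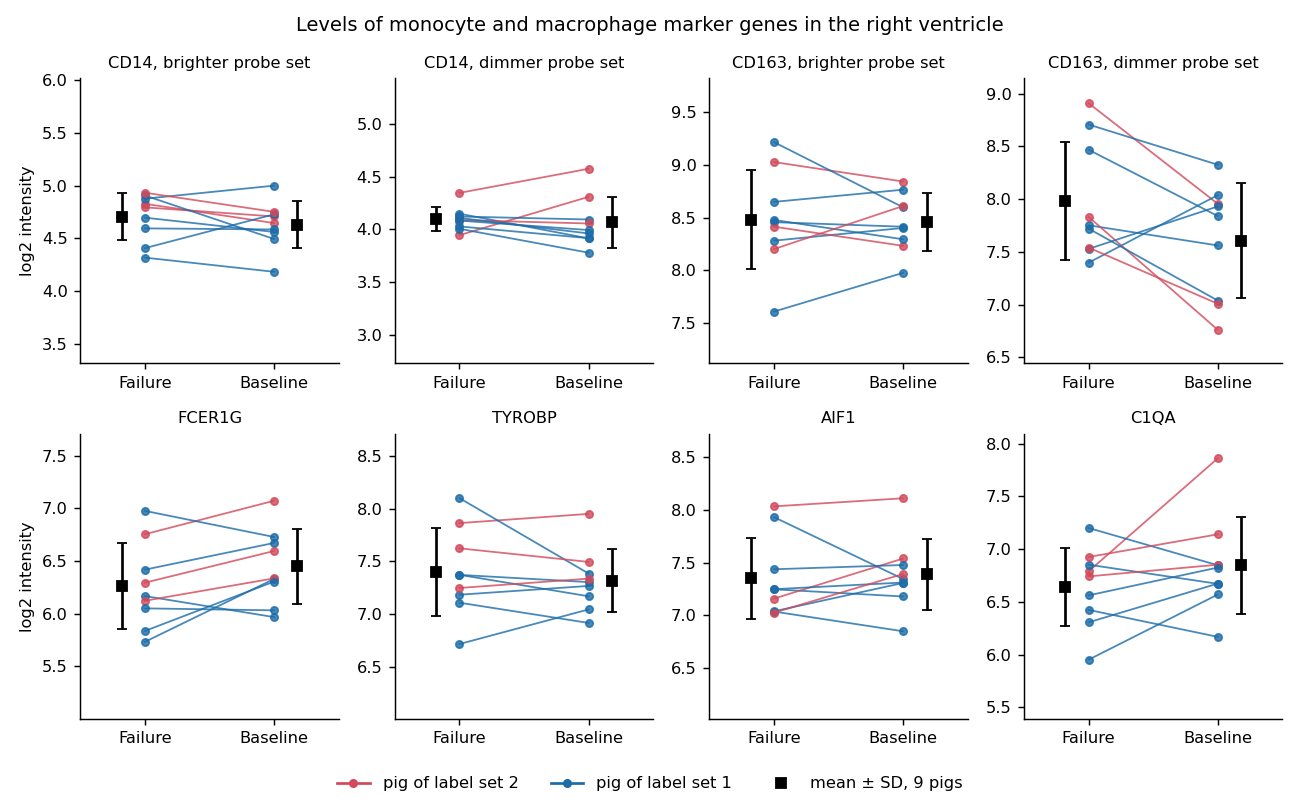
Log2 intensity of each probe set of the 6 marker genes in failure and at baseline, with a line for each of 9 pigs (red for label set 2, blue for label set 1) and squares with bars for mean ± SD. Every panel spans the same range of log2 units, and the failure and baseline points of each panel overlap.

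CD14 is the coreceptor that hands bacterial lipopolysaccharide to TLR4 and is a classical marker of blood monocytes. Its brighter probe set ran from 4.32 (pig 8) through a median of 4.79 to 4.93 (pig 14) in failure, against 4.18 (pig 8), 4.65 and 5.0 (pig 9) at baseline. Its dimmer probe set had 3.94, 4.09 and 4.35 in failure, against 3.78, 3.99 and 4.57 at baseline. Both groups overlapped almost wholly, and on all 18 arrays both probe sets lay below the median of the array. The dimmer one lay below the 25th percentile on 4 arrays, so CD14 was measured near the dim end of the array. The log2 change of the brighter probe set was 0.08 (SE 0.07, 95% interval -0.07 to 0.23, adjusted p = 0.922 in limma), higher in 7 of 9 pigs. It was 0.04 without pig 11 and 0.13 without pig 13. That of the dimmer one was 0.03 (adjusted p = 0.973 in limma), also higher in 7 of 9 pigs.

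CD163 is the scavenger receptor that takes up complexes of haemoglobin and haptoglobin and marks tissue macrophages. Its brighter probe set ran from 7.61 (pig 11) through 8.46 to 9.22 (pig 8) in failure, against 7.98 (pig 11), 8.41 and 8.84 (pig 5) at baseline. Failure and baseline had almost the same mean, 8.48 ± 0.47 and 8.46 ± 0.27 (SD, n = 9 each), with a log2 change of 0.02 (SE 0.09, 95% interval -0.18 to 0.22, adjusted p = 0.989 in limma) and 5 of 9 pigs higher. With the GAPDH difference as a covariate this change was -0.02.

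The dimmer CD163 probe set had the largest change among the 8. It ran from 7.40 (pig 6) through 7.75 to 8.91 (pig 5) in failure, against 6.76 (pig 10), 7.84 and 8.33 (pig 13) at baseline. Its means were 7.98 ± 0.56 in failure and 7.61 ± 0.55 at baseline (SD, n = 9 each), which is 1.30-fold higher in failure with a 95% interval of 1.04 to 1.63. The log2 change of 0.38 (SE 0.15, unadjusted p = 0.0262, adjusted p = 0.727 in limma) was positive in 7 of 9 pigs and negative in pigs 6 (-0.64) and 11 (-0.40). The change of this probe set minus that of the brighter one ran from -0.68 (pig 6) to 0.94 (pig 14). The files do not say which part of the transcript each one reads.

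FCER1G is the common gamma chain that carries the signal of several Fc receptors. Its level ran from 5.73 (pig 9) through 6.17 to 6.97 (pig 8) in failure, against 5.97 (pig 6), 6.33 and 7.07 (pig 5) at baseline. The groups overlapped over most of their range, and 6 of 9 pigs were lower in failure. The means were 6.26 ± 0.40 in failure and 6.45 ± 0.35 at baseline (SD, n = 9 each), a log2 change of -0.19 (SE 0.09, 95% interval -0.37 to -0.003, unadjusted p = 0.0471, adjusted p = 0.811 in limma).

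TYROBP, also called DAP12, is the adaptor through which TREM2 and other receptors without a signalling tail reach the kinase SYK. Its level ran from 6.72 (pig 11) through 7.37 to 8.10 (pig 8) in failure, against 6.92 (pig 12), 7.30 and 7.95 (pig 5) at baseline. Its log2 change was 0.08 (SE 0.09, 95% interval -0.11 to 0.27, adjusted p = 0.947 in limma), higher in 5 of 9 pigs. The changes of single pigs spread from -0.33 (pig 11) to 0.72 (pig 8). Without pig 8 the log2 change was 0.000605 and without pig 11 it was 0.13.

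AIF1, or IBA1, is an actin-binding protein of macrophages and microglia that takes part in membrane ruffling and phagocytosis. Its level ran from 7.02 (pig 14) through 7.25 to 8.03 (pig 5) in failure, against 6.85 (pig 12), 7.34 and 8.11 (pig 5) at baseline. Pig 5 was the highest animal in both states. The log2 change was -0.04 (SE 0.09, 95% interval -0.23 to 0.15, adjusted p = 0.973 in limma), with 6 of 9 pigs lower.

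C1QA encodes the A chain of C1q, the recognition protein of the classical complement pathway, which also tags dying cells for uptake. Its level ran from 5.95 (pig 9) through 6.74 to 7.20 (pig 8) in failure, against 6.17 (pig 12), 6.83 and 7.86 (pig 5) at baseline. Only pig 5 at baseline stood above 7.20, and the other values of both states shared 1 range. The means were 6.64 ± 0.37 in failure and 6.85 ± 0.46 at baseline (SD, n = 9 each), a log2 change of -0.21 (SE 0.12, 95% interval -0.47 to 0.06, adjusted p = 0.868 in limma) with 6 of 9 pigs lower. Pig 5 had the most negative change, -1.07, and without this animal the log2 change was -0.10.

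**Figure D2:**
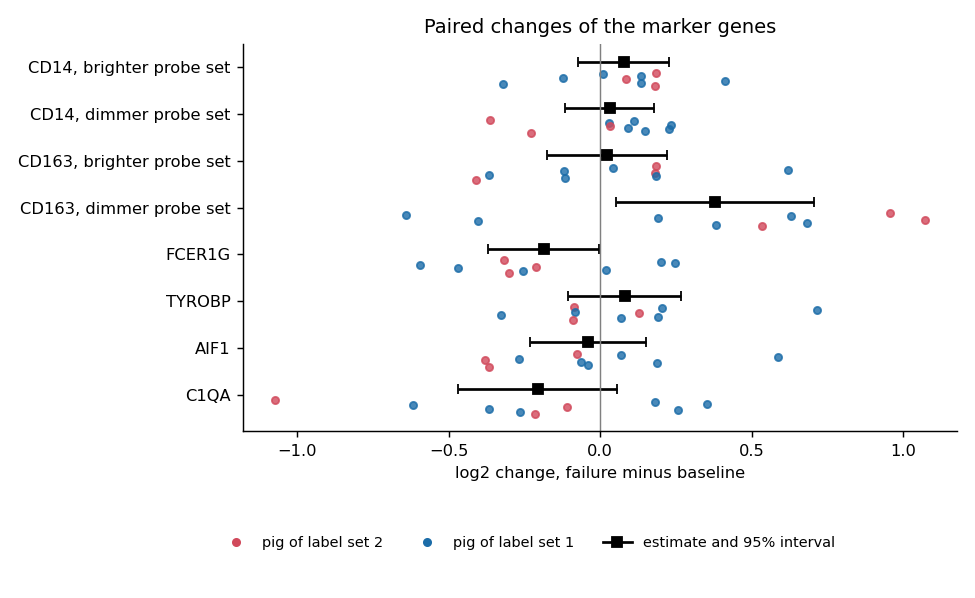
Log2 change (failure minus baseline) of each probe set in each of 9 pigs (points, red for label set 2 and blue for label set 1), with the estimate and its 95% interval (squares and bars). The intervals of the dimmer CD163 probe set (0.05 to 0.70) and of FCER1G (-0.37 to -0.003) lie to one side of 0 before adjustment, and the other 6 span 0.

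The spread of the changes between pigs was wide for most of the markers. Ranked by the SD of the change over 9 pigs among all tested probe sets, the dimmer CD163 probe set stood at percentile 98.5 and C1QA at percentile 96.0. The brighter CD163 probe set, AIF1, TYROBP and FCER1G stood at percentiles 84.6, 81.6, 79.2 and 77.9. The CD14 probe sets, at 45.9 and 42.8, did not stand out in this way.

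The animals differed in whether the markers were higher or lower in failure. Taking the brighter probe set of each gene, all 6 genes were higher in failure in pigs 6, 8 and 12, and all 6 were lower in pig 9. In pigs 11, 13 and 14, 5 of the 6 were lower. Pig 8 had the largest positive change of CD163 (0.62), FCER1G (0.25), TYROBP (0.72), AIF1 (0.59) and C1QA (0.35), and a median change over the 6 genes of 0.47. Pig 11 was at the other end with a median change of -0.35, and there CD14 (0.41) went the other way from the rest. Pig 10 was split, with CD163, TYROBP and CD14 higher and FCER1G, AIF1 and C1QA lower.

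**Figure D3:**
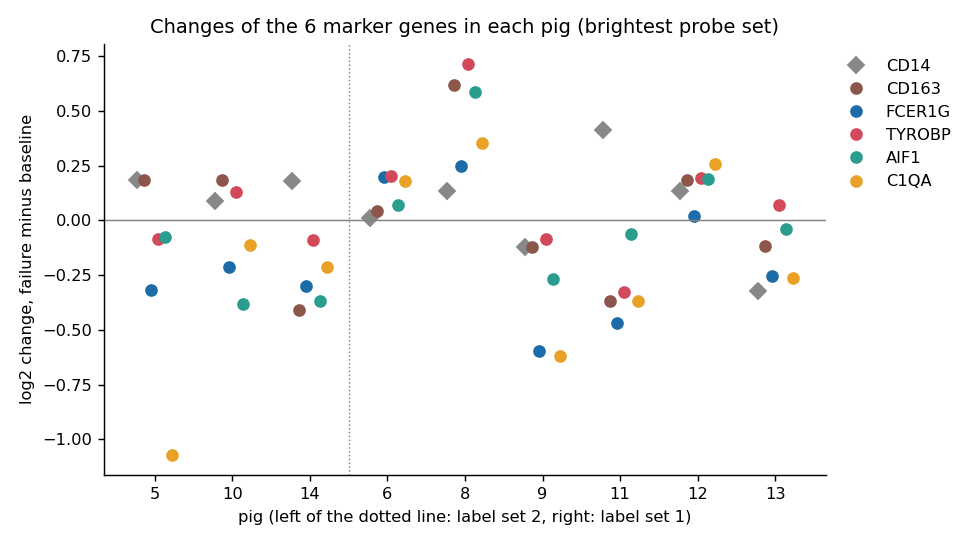
Log2 change (failure minus baseline) of the 6 marker genes in each pig, by the brighter probe set where a gene has 2, with label set 2 left of the dotted line and label set 1 right of it. In pigs 6, 8 and 12 all points lie above 0, in pig 9 all lie below, and the CD14 diamonds often stand away from the circles of the other genes.

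The joint variation was measured as a correlation over the 9 pigs for each of 15 pairs of genes, with exact permutation tests, two-sided, and Benjamini-Hochberg adjustment over the 15 pairs within each of 4 measures (changes, pig mean levels, failure levels and baseline levels). For the changes, Pearson's r was positive in 11 of 15 pairs with a median of 0.684, beside a median of 0.0131 over all pairs of the 6765 named genes. An r of at least 0.7 was reached by 6 of the 15 pairs and by 3.43% of all pairs of named genes. The 10 pairs without CD14 were all positive, from 0.369 (CD163 with C1QA) to 0.855 (CD163 with TYROBP). The 5 pairs with CD14 lay between -0.205 and 0.0781. This split of the pairs by CD14, here and below, was made once the data were known.

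FCER1G and TYROBP, both adaptors that carry an activation motif and signal through SYK, varied together from pig to pig with r = 0.846 (exact permutation p = 0.00114, adjusted p = 0.0172; Spearman's rho 0.883, adjusted p = 0.0231). CD163 and TYROBP had r = 0.855 (exact permutation p = 0.00443, adjusted p = 0.0332; rho 0.683, adjusted p = 0.189). By rank, FCER1G and C1QA also passed (rho 0.917, exact permutation test, adjusted p = 0.0197; r = 0.786, adjusted p = 0.0548). Without the 2 pigs farthest from the median of the first gene, r was 0.766 for FCER1G with TYROBP, 0.720 for CD163 with TYROBP and 0.643 for FCER1G with C1QA.

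Single animals weighed on these calls. By Pearson's r, no pair passed when pig 8, 11, 13 or 14 was left out, 1 passed without pig 9 or 12, 2 without pig 6, 4 without pig 5 and 6 without pig 10 (exact permutation tests, adjusted over 15 pairs). Without pig 8, which had the largest positive changes, the 10 pairs without CD14 spanned 0.0673 to 0.804. Within the 6 pigs of label set 1 alone, the same 10 pairs spanned 0.795 to 0.979. Label set 2 held too few pigs for a correlation.

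**Figure D4:**
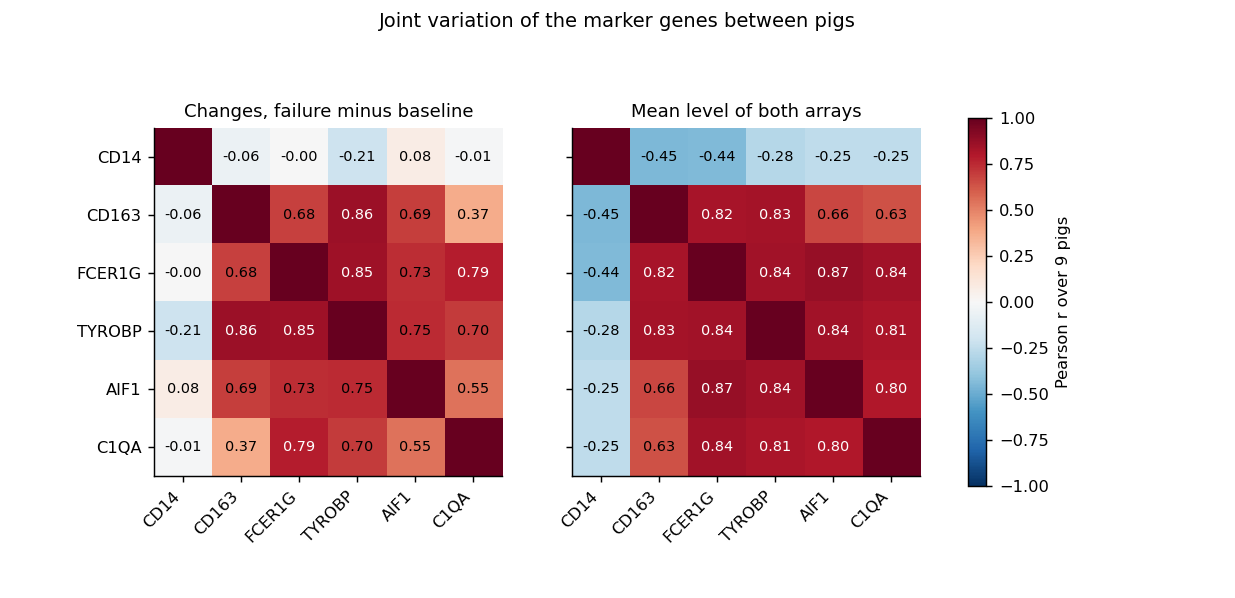
Pearson's r over 9 pigs for each pair of marker genes, for the log2 changes (left) and for the mean level of both arrays of a pig (right), from -1 (blue) to 1 (red). The 10 pairs without CD14 are red in both panels, and the CD14 row is pale or blue.

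Levels varied together as well. For the mean level of a pig's 2 arrays, r had a median of 0.797 over the 15 pairs, beside -0.000277 over all pairs of named genes, and an r of at least 0.7 was reached by 8 of 15 pairs and by 5.2% of all pairs. The 10 pairs without CD14 ran from 0.633 to 0.871, and 8 of the 15 pairs passed the exact permutation test after adjustment. The highest was FCER1G with AIF1 (r = 0.871, exact permutation p, adjusted, 0.0139; rho 0.883, adjusted p = 0.0413). Pairs with CD14 were negative in all 5 cases, from -0.453 to -0.251, and none passed. Their sign rested on few animals: r ran from -0.149 to 0.120 without pig 8. Without pigs 8 and 9, the 2 farthest from the CD14 median, it ran from -0.120 to 0.521.

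Pig 5 was the animal on which the calls for mean levels rested. At baseline it had the highest level of CD163 by the brighter probe set (8.84), FCER1G (7.07), TYROBP (7.95), AIF1 (8.11) and C1QA (7.86). Without pig 5, 0 of 15 pairs passed (exact permutation tests), although r of the 10 pairs without CD14 still ran from 0.476 to 0.821. Pig 5 also had the largest GAPDH 3' to 5' difference, 3.55 in failure and 2.61 at baseline, against at most 2.17 in failure and 1.49 at baseline in the other pigs. Its part in the marker levels between pigs was not tested.

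Split by state, the 10 pairs without CD14 ran from 0.529 to 0.921 on the failure arrays and from 0.550 to 0.949 on the baseline arrays. Pairs with CD14 were negative on the failure arrays (-0.655 to -0.464) and near 0 on the baseline arrays (-0.0931 to 0.134). These values depended on single animals. Without pigs 8 and 13, the 2 farthest from the CD14 median in failure, r ran from -0.393 to -0.00479 on the failure arrays. Without pigs 8 and 9, the 2 farthest at baseline, it ran from 0.397 to 0.651 on the baseline arrays. The difference between the states was not tested.

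A pig's failure level and its own baseline level were positively correlated for all 8 probe sets, without passing the test. Over 9 pigs, r between them was 0.751 for the brighter CD163 probe set, 0.719 for FCER1G, 0.710 for TYROBP, 0.651 for AIF1 and 0.432 for C1QA. None of the 8 probe sets passed the exact permutation test after adjustment (smallest adjusted p = 0.0878 for r and 0.0862 for rho). Without the 2 pigs farthest from the baseline median, r was 0.349 for CD163, 0.415 for FCER1G and -0.0113 for AIF1, and 0.753 for TYROBP.

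The probe sets of a gene were a check on the gene itself. The changes of the 2 CD163 probe sets had r = 0.438 over 9 pigs and their mean levels r = 0.631, and those of the 2 CD14 probe sets had r = -0.388 and 0.254. None of these 4 relations passed the exact permutation test (smallest adjusted p = 0.272 for r and 0.144 for rho). Taking the dimmer probe sets of CD14 and CD163 in place of the brighter ones gave a median r of 0.243 over the 15 pairs of changes. This alternative was chosen once the data were known.

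The label sets were compared for the response and for the starting level. The interaction of label set with failure called 0% of 23935 probe sets and 0 of the 8 markers (adjusted p from 0.867 to 0.994 in limma). At an unadjusted p under 0.05 there were 2 of the 8 and 5.67% of all probe sets. The dimmer CD163 probe set had a mean log2 change of 0.85 ± 0.28 over the 3 pigs of label set 2, against 0.14 ± 0.55 (SD) over the 6 pigs of label set 1 (adjusted p = 0.867 in limma). The dimmer CD14 probe set had -0.19 ± 0.20 in label set 2 and 0.14 ± 0.08 in label set 1 (adjusted p = 0.867 in limma). FCER1G, AIF1 and C1QA were lower in failure in 3 of 3 pigs of label set 2 and in 3 of 6 pigs of label set 1.

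At baseline 7 of the 8 probe sets, and 13219 of all 23935, had a higher mean in label set 2, a comparison added once the data were known. It called 0.0209% of all probe sets and 0 of the 8. At an unadjusted p under 0.05 there were 4 of the 8 and 13.9% of all probe sets. C1QA was 7.29 ± 0.52 (6.85 to 7.86, n = 3) in label set 2 and 6.63 ± 0.25 (6.17 to 6.85, n = 6) in label set 1. The log2 difference was 0.66 (unadjusted p = 0.00909, adjusted p = 0.276 in limma). TYROBP differed by 0.41, AIF1 by 0.44 and FCER1G by 0.33. The dimmer CD163 probe set, at 7.24 ± 0.63 in label set 2 and 7.79 ± 0.44 in label set 1, was the exception. On the failure arrays the same comparison called 0% of all probe sets and 0 of the 8. The mean was higher in label set 2 for 8 of the 8 and for 12760 of all 23935 probe sets. Here 0 of the 8 and 8.74% of all probe sets had an unadjusted p under 0.05.

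RNA quality and other tissue signals were set beside the markers. In a fit with the GAPDH difference as a covariate, its relation passed for 0.769% of all probe sets and for 0 of the 8 markers (smallest adjusted p = 0.663 in limma). With it, the log2 change was -0.21 for FCER1G (95% interval -0.42 to -0.01) and 0.30 for the dimmer CD163 probe set (-0.06 to 0.66). The changes of the 6 genes were also correlated over 9 pigs with those of the GAPDH difference, ALAS2 (erythroid haem synthesis), IL6, CD8A (cytotoxic T cells), COL1A2 (fibroblasts) and VWF (endothelium). COL1A2 was the 1 of 8 fibroblast markers with a change below 0 (-0.04), so it does not stand for that list. Of these 36 relations, 0 passed after adjustment and the smallest adjusted p was 0.328 (exact permutation tests). It belonged to C1QA with IL6 (r = -0.813, rho -0.650, exact permutation p = 0.00911), for which r was -0.393 without the 2 farthest pigs. With the GAPDH difference, r over 9 pigs ran from -0.331 (CD14) to 0.346 (AIF1). Without pigs 5 and 13, the 2 farthest on that difference, r was 0.663 for CD163, 0.744 for FCER1G and 0.588 for TYROBP. AIF1 then had 0.707, C1QA 0.857 and CD14 0.20. These values without 2 pigs were not tested.

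Other genes of these cells were followed by lists. Of 16 genes of resident macrophages, 9 were measured, and 0 passed in limma (0 at an unadjusted p under 0.05). By the brightest probe set of each gene, all 9 changes were above 0, with a median log2 change of 0.06. Over all named genes the median was -0.00659 and the share above 0 was 46.4%. For this and the following lists, 375 of all 6765 named genes had an unadjusted p under 0.05. The largest were MRC1, the mannose receptor, with 8.05 ± 0.50 in failure and 7.91 ± 0.35 at baseline (change 0.14, SE 0.11), and CD209, a lectin receptor (0.12, SE 0.11). The smallest were VSIG4, a complement receptor of macrophages (0.00146), and GAS6, a bridge to dying cells (0.01). Further probe sets went down to -0.08 for VSIG4 and to -0.04 for MARCO, also on this list. The 3 probe sets of LYVE1, another member, had 0.03 to 0.11. SELENOP, a selenium transport protein, was the brightest (12.2 ± 0.2 in failure, 12.1 ± 0.2 at baseline, SD, n = 9 each), and 3 of the 9 genes lay at or below the array median.

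Genes of monocytes and recruited macrophages were split evenly. Of 18 listed, 14 were measured, 7 were higher and 7 lower, the median log2 change was -0.01, and 0 passed (2 at an unadjusted p under 0.05). PLAC8, a gene of blood leukocytes, was 6.95 ± 0.97 in failure and 7.35 ± 1.10 at baseline and was lower in 9 of 9 pigs (change -0.40, SE 0.08, adjusted p = 0.175 in limma). The chemokine CCL3L1 had a change of -0.41 (SE 0.14, adjusted p = 0.622 in limma) and CCL4 one of -0.20 (SE 0.25). The chemokine CCL2, which draws monocytes, had 0.57 (SE 0.32) and THBS1, a matrix glycoprotein, 0.22 (SE 0.11). The 5 probe sets of THBS1 ran from -0.07 to 0.22. S100A8, S100A9 and S100A12, which are abundant in monocytes and neutrophils, had mean levels of at most 4.13 in failure and 3.99 at baseline, well under the array medians.

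Myeloid receptors, adaptors and signalling genes were split in direction. Of 37 listed, 25 were measured, 12 higher and 13 lower, with a median log2 change of -0.02 and 0 past the test (2 at an unadjusted p under 0.05). FCGR3A, an activating Fc receptor that signals through the FCER1G chain, was 7.7 ± 0.3 in failure and 8.0 ± 0.3 at baseline (SD, n = 9 each) (change -0.26, SE 0.08, adjusted p = 0.570 in limma, lower in 7 of 9 pigs). The change of the other FCGR3A probe set was 0.02. ITGB2, the beta chain of leukocyte integrins, had -0.25 (SE 0.12), CEBPB, a transcription factor, 0.19 (SE 0.08) and NCF4, an oxidase subunit, 0.08 (SE 0.08). HCST, or DAP10, whose gene lies next to TYROBP in the RefSeq annotation of Sscrofa11.1, had -0.03 (SE 0.08), and the neonatal Fc receptor FCGRT had -0.04 (SE 0.08).

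Complement genes other than C1QA showed no common direction. Of 15 listed, 12 were measured, 7 higher and 5 lower, with a median of 0.04 and 0 past the test (1 at an unadjusted p under 0.05). C1QC, the C chain of C1q, lies next to C1QA in the same annotation, and its level was 8.40 ± 0.61 in failure and 8.60 ± 0.47 at baseline (change -0.20, SE 0.14, lower in 6 of 9 pigs), close to the change of C1QA. C3, the central component, had 0.33 (SE 0.16). CFD, a protease of the alternative pathway that fat cells make, had 0.24 (SE 0.07, adjusted p = 0.460 in limma) and was higher in 9 of 9 pigs. The inhibitor CD55 had -0.19 (SE 0.11), the inhibitor CD59 -0.06 (SE 0.05), and the proteases C1R and C1S 0.11 (SE 0.10) and -0.01 (SE 0.09). The other CD59 probe set had -0.26, and the 5 CD55 probe sets ran from -0.19 to 0.03.

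Lysosomal and class II genes had no member past the test. Of 22 lysosomal and phagocytic genes 19 were measured, 12 higher and 7 lower, with a median log2 change of 0.02 and 0 past the test (0 at an unadjusted p under 0.05). GPNMB had 0.13 (SE 0.19), LGMN 0.10 (SE 0.08), CD63 -0.09 (SE 0.07) and GRN -0.08 (SE 0.10), and the proteases CTSB and CTSC had 0.06 (SE 0.06) and 0.05 (SE 0.07). Of 13 class II antigen presentation genes 12 were measured, 1 was higher and 11 lower, with a median of -0.07 and 0 past the test (2 at an unadjusted p under 0.05). SLA-DRA, the alpha chain of the DR molecule, was 9.20 ± 0.37 in failure and 9.40 ± 0.30 at baseline (change -0.20, SE 0.08, adjusted p = 0.758 in limma). SLA-DQA1 had -0.17 (SE 0.08), SLA-DQB1 -0.04 (SE 0.07) and CIITA, the master regulator of the group, -0.02 (SE 0.05). SLA-DOA, which restrains peptide loading, was the 1 gene above 0 by the brightest probe set, at 0.19 (SE 0.08). Further probe sets of this list went up to 0.15 for SLA-DRB1 and 0.04 for CD80. Others went down to -0.21 for SLA-DMA and -0.14 for CD40.

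Markers of other cells give the setting of these values. None of 6 neutrophil markers measured had a mean level above the median of all probe sets, and the same was true of 12 lymphocyte markers. The neutrophil list had a mean level of 3.84 to 4.28 on the failure arrays and 3.81 to 4.10 on the baseline arrays, and for lymphocytes 4.24 to 4.56 and 4.42 to 4.67. Of the lymphocyte markers 9 were lower and 3 higher (median -0.08, 0 past the test). At an unadjusted p under 0.05 there were 4 of these 12 and 375 of all 6765 named genes. Fibroblast markers (7 of 8 higher, median 0.07), endothelial markers (6 of 10 higher, median 0.01), mast cell markers (3 of 3 higher, median 0.07) and inflammatory mediators (10 of 14 higher, median 0.21) each had 0 past the test. So did cardiomyocyte markers (2 of 12 higher, median -0.05), atrial markers (5 of 5 higher, median 0.14) and platelet markers (0 of 3 higher, median -0.01).

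Genes that varied most like the markers over the 18 arrays were sought among 6067 other named genes whose mean level was above the 25th percentile. Likeness was Pearson's r to the mean of the 6 genes, each centred and scaled, and is a description, since the arrays come in pairs from the same pigs. C1QC was first (r = 0.894), followed by SLA-DMB, a class II peptide exchange factor (0.874), IFI30, a lysosomal thiol reductase of antigen presentation (0.837), and BIN1, a membrane-bending protein (0.834). Then came BTK, a kinase of B cells and myeloid cells (0.824), CTSS, the cathepsin that trims the class II invariant chain (0.819), WASF2, an actin regulator (0.819), and JAK3, a kinase of cytokine receptors (0.815). For the changes alone, r over 9 pigs was 0.915 for C1QC, 0.914 for SLA-DMB and 0.810 for CTSS, and it was 0.357 for JAK3 and 0.430 for BTK. None of these 8 genes passed the test between failure and baseline (adjusted p of at least 0.892 in limma).

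Each gene had its own nearest neighbours. CD163 was most like VSIG4 (r = 0.869 over 18 arrays, 0.948 for the changes of 9 pigs) and then TYROBP (0.835). FCER1G was most like BTK (0.861, and 0.446 for the changes) and BIN1 (0.844, and 0.764 for the changes). TYROBP was most like GMFG, an actin-remodelling factor (0.872, and 0.862 for the changes), and CD53, a leukocyte tetraspanin (0.863, and 0.914 for the changes). AIF1 was most like CTSS (0.942 over 18 arrays, 0.978 for the changes) and ARPC1B, a subunit of the actin-branching complex (0.900, and 0.797 for the changes). C1QA was most like C1QC (0.921, and 0.855 for the changes) and BIN1 (0.871, and 0.868 for the changes). CD14 was most like PML (0.849, and 0.802 for the changes) and LOC100737113 (0.839, and 0.418 for the changes).

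By list, the median r to the mean of the markers was 0.526 for 8 fibroblast markers, 0.478 for 25 myeloid receptors and adaptors, 0.432 for 12 class II genes and 0.338 for 12 complement genes. It was 0.337 for 5 red blood cell markers, 0.325 for 12 lymphocyte markers, 0.319 for 19 lysosomal genes, 0.277 for 9 genes of resident macrophages and 0.183 for 14 genes of monocytes and recruited macrophages. Over all other named genes it was 0.0234, and 10.7% of them had an r above 0.5. C1QC was counted both as a complement gene and among the myeloid genes. Endothelial (0.235), neutrophil (0.199), atrial (0.176), platelet (0.159) and mast cell markers (0.138) had lower medians. Cardiomyocyte markers had a median of -0.332 and inflammatory mediators one of -0.0431. Within lists the values were scattered: among complement genes, C1QC had 0.894 and CD59 -0.816, and among class II genes SLA-DMB had 0.874 and SLA-DMA -0.529. The part of fibroblast or cardiomyocyte content in the variation of the markers was not tested.

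**Figure D5:**
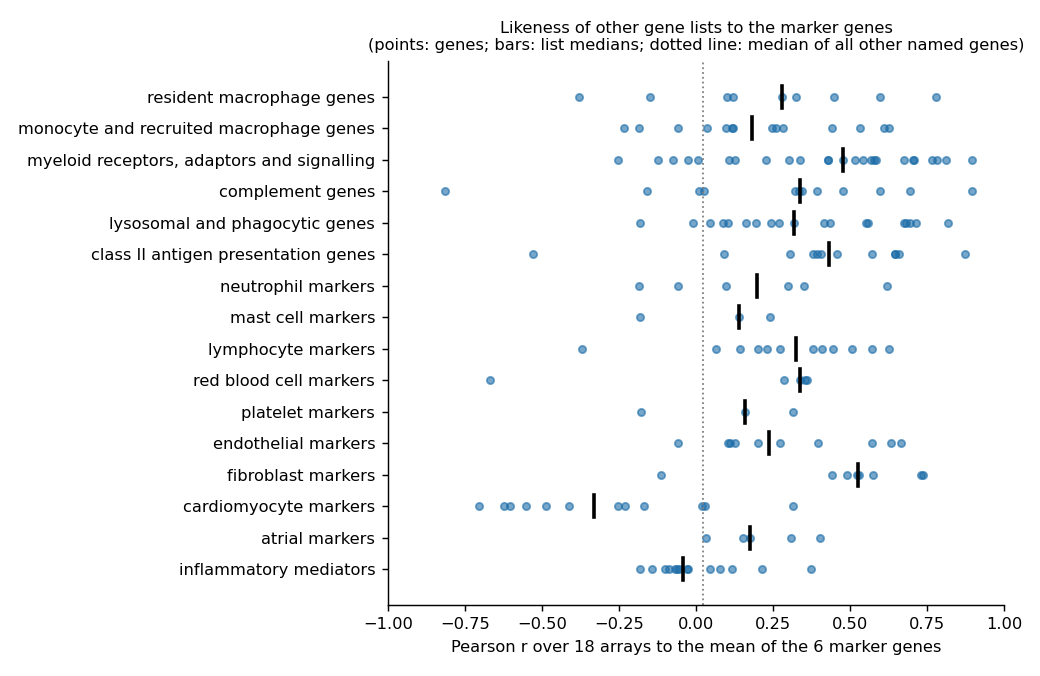
Pearson's r over 18 arrays between single genes of each list (points) and the mean of the 6 marker genes, with list medians as bars and the median of all other named genes as a dotted line (0.0234). Fibroblast markers (0.526) and myeloid receptors and adaptors (0.478) have the highest medians, and cardiomyocyte markers (-0.332) the lowest.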

How the data were processed

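Biotin-labelled cRNA made from total RNA with a 3' IVT kit was hybridised to 1 Affymetrix array per sample, per the labels' protocols. The table deposited by the authors holds 1 log2 intensity per probe set and array, used here unaltered. Per the submitters' processing notes the software was Partek, with no version. How it was background-corrected and normalized is not given in the sources used here. Array medians were near-identical, so a shift of most transcripts in 1 direction could be hidden. Precision is limited by the number of arrays.

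Of 24123 probe sets, 188 controls were left out. Genes were named from the array's annotation table, for 10069 tested probe sets with exactly 1 symbol, and 9961 had an identifier in the RefSeq table of Sscrofa11.1. The brightest probe set by mean stands for a gene. Failure was compared with baseline with limma 3.58.1 in R 4.3.3 (a block for pig, two-sided tests, Benjamini-Hochberg adjustment), and the fits were tested on simulated data. The pairing comes from the pig numbers in the labels. With group means subtracted, r between a pig's own arrays lay between 0.449 and 0.750, and for 9 of 9 pigs no other failure array was closer to the baseline array. Correlations over pigs used exact permutation tests computed with numpy 2.4.6, and their adjustment used scipy 1.17.1.

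The marker genes and the other lists were chosen with earlier results of these data known. Named genes are the markers, the list members past the threshold, the 2 largest changes in each direction and the 3 brightest of each other list (lists of other cell types are given mostly by counts), and the genes most like the markers (8 for their mean, 2 for each gene). VWF, IL6, CD8A and COL1A2, and S100A8, S100A9, S100A12, HCST, SLA-DMA, MARCO and LYVE1, were named after their values were seen. So were the further probe sets of FCGR3A, VSIG4, MARCO, LYVE1, THBS1, CD55 and CD59. SLA-DRB1, CD80 and CD40, and the further probe sets given for class II genes, were also named after their values were seen. Alternatives were other scalings, filters, variance models, blocks, probe set rules, the GAPDH covariate, fits that omit 1 pig and fits of 1 label set.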

Additional observations from a re-analysis of the deposited data

Results flagged for a closer look

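No animal was marked as apart from its group in the values of a single probe set. Dixon's test at its 95% critical value was applied to the failure levels, the baseline levels and the changes of the 8 probe sets, 24 groups of 9 values in all, and it marked 0 of them, where chance marks about 1 in 20 (1.2 expected).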

How the results depend on the processing

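The count of marker probe sets past the threshold was 0 under all 21 alternatives, and the interaction with label set called 0 probe sets under all 11. The count over all probe sets, 16 in the paired fit, was 0 with no replicate block and 0 in the unmoderated paired test (440 and 1431 at an unadjusted p under 0.05), 9 with probe sets below the median level left out (which gave no value for CD14), 10 with a variance trend and robust fitting together, 9 with the GAPDH covariate, 5 for gene means, 3 in label set 1 alone and 0 in label set 2 alone. With a pig left out it ran from 2 to 26. The median change of the markers ran from -0.0259 to 0.0640 with a pig left out and was -0.101 in label set 2 alone, 0.0599 in label set 1 alone and -0.00860 with dim probe sets left out. Mean changes near 0 turned their sign: CD163 had -0.0232 with the GAPDH covariate and -0.0141 in label set 2 alone, TYROBP had -0.0157 in label set 2 alone, and AIF1 had 0.0784 in label set 1 alone. With a pig left out CD163 ran from -0.0524 (without pig 8) to 0.0761, and AIF1 from -0.118 to 0.00325 (without pig 10). CD163 had its highest value, 0.200 (SE 0.108), with the mean of a gene's probe sets. The changes of CD14, FCER1G and C1QA kept their direction under all alternatives that gave a value, but not their size: with a pig left out CD14 ran from 0.0358 to 0.128, FCER1G from -0.241 to -0.136, C1QA from -0.276 to -0.0981 and TYROBP from 0.000605 to 0.131. In label sets 2 and 1 alone C1QA had -0.466 and -0.0765, CD14 0.150 and 0.0415, and FCER1G -0.277 and -0.142. The median r of the changes, 0.684, was 0.243 with the dimmer probe sets and 0.437 with the mean of a gene's probe sets, and with a pig left out it ran from 0.333 (without pig 8) to 0.738. The cause of these shifts was not tested. Both CD14 probe sets lay below the median of every array.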
